A study of Mus musculus with 26 samples.

Results

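Respiratory complex I, the NADH:ubiquinone oxidoreductase of the mitochondrial inner membrane, was followed in mouse leg muscle through the genes of its subunits and of the factors that assemble it. Members were the probe sets that name 1 gene and whose gene symbol begins with Ndufa, Ndufb, Ndufc, Ndufs or Ndufv followed by a number, is Ndufab1, or begins with Ndufaf. This rule gave 88 of the 34945 probe sets that name 1 gene, and 44 of 18193 genes. They were 34 subunit genes, the 8 assembly factors Ndufaf1 to Ndufaf8, and the pair Ndufa4 and Ndufa4l2. Ndufa4 was first described as part of complex I and is now counted with complex IV, so this pair was kept out of the subunit class. Counts, medians and correlations over all members, called complex I genes below, include the pair. After a filter on dim probe sets, 81 probe sets and 43 genes were tested. The gene not tested was Ndufb4, whose 1 probe set here was under the filter.

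The study measured the tibialis anterior and extensor digitorum longus (TA/EDL), muscles of the shin made up largely of fast fibres, from 26 mice on 1-colour expression arrays, 1 array per mouse. The 4 groups were 7 MKO and 6 FLOX mice on calorie restriction (CR), and 7 MKO and 6 FLOX mice on the control diet. Per the labels, MKO marks a knockout of PGC-1a restricted to skeletal muscle and FLOX mice are their floxed littermates. PGC-1a, encoded by Ppargc1a, is a transcriptional coactivator of genes for mitochondrial energy metabolism. All mice were of mixed C57/BL6 and 129 background and housed singly. CR mice were given 80% of their free intake for the first week and 60% after it, while control mice were given 90%, over 12 weeks in all. The promoter that drives the recombinase, the sex and the age of the mice are not stated in the sources used here.

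Complex I takes electrons from NADH, passes them to ubiquinone and pumps protons across the inner membrane. Its core subunits carry the flavin, the iron-sulfur clusters and the proton channels, and some of the core is encoded in mitochondrial DNA. Accessory subunits surround the core. The N module binds NADH, the Q module reduces ubiquinone, and the proximal and distal parts of the membrane arm hold the proton channels. Assembly factors build or modify the parts and are absent from the finished enzyme. Muscle fibres that rely on oxidative metabolism are rich in this complex, and PGC-1a is known to raise its genes together with those of the rest of the respiratory chain.

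The targeted gene was brighter in the mice labelled MKO. The brightest of the 5 Ppargc1a probe sets read 1473 to 1966 (median 1641) in CR MKO muscle, against 908 to 1411 (median 1021) in CR FLOX muscle. The same probe set on the control diet read 1244 to 2359.6 (median 1425) in MKO muscle, against 797 to 985 (median 923) in FLOX muscle. Intensities here and below are linear and given as the range and median over the mice of a group, and log2 changes are differences of group means of log2(intensity + 16) with their SE after ±. In limma's fit over all genes the log2 change, MKO minus FLOX, was 0.60 ± 0.11 (adjusted p = 0.000201) on CR and 0.72 ± 0.11 (adjusted p = 2.46e-05) on the control diet. The position of these probe sets with respect to the deletion is not stated in the sources used here, so they do not check the deletion, and MKO below means the mice labelled so. Markers of fast skeletal muscle were bright on every array, with a summed intensity of 233072 to 244925. The lowest value on an array was 56.6 to 62.8, so no gene was listed at 0. Arrays of 1 group correlated at 0.984 to 0.996 over all genes tested, and no pair of arrays was identical.

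Promoter sequences are shown for the 2 subunits that fell most in MKO muscle on the control diet and for the assembly factor of smallest p there. They are from RefSeq (GRCm38.p6), run 5′ to 3′ on the gene's strand, and span 250 bases before to 50 bases after the start site used in the RefSeq promoter table. For Ndufaf5 that site lies inside the annotated gene, downstream of its first base. Entries were found for 39 of the 44 members, and there was none for Ndufa2, Ndufa4l2, Ndufaf6, Ndufb9 and Ndufs1. Capitals mark the matched motif, GCATGCGC for the nuclear respiratory factor NRF1 in Ndufa8 and Ndufaf5, and AAGATGGC for YY1 in Ndufc1.

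Ndufa8 (chr2:36049289-36049588, minus strand): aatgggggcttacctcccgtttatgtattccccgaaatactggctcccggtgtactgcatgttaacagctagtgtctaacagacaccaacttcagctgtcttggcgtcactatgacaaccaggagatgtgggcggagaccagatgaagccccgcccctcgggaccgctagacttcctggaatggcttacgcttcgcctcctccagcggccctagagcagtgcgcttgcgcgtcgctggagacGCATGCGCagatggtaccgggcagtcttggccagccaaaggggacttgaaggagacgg
Ndufc1 (chr3:51408906-51409205, minus strand): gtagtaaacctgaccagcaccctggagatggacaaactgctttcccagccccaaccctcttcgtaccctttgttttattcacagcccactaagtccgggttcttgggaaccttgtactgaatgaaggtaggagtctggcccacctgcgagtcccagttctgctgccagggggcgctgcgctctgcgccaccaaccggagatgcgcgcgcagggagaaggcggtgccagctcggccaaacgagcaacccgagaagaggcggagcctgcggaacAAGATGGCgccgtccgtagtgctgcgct
Ndufaf5 (chr2:140170396-140170695, plus strand): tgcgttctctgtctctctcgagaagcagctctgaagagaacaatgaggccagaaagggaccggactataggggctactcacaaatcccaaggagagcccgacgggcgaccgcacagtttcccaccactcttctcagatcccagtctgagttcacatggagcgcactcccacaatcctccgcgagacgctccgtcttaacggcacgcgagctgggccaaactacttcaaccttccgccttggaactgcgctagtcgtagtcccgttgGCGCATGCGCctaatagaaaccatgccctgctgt

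Windows were searched on both strands for 4 motifs. In the Ndufaf5 window the capitals hold overlapping matches to GCATGCGC, 1 on each strand. GCATGCGC was in 4 of 39 member promoters (Ndufa6, Ndufa8, Ndufaf4 and Ndufaf5), which is 10.3%, against 3.05% of 27025 promoters. AAGATGGC was in 7 of 39 (Ndufa3, Ndufa9, Ndufaf8, Ndufb8, Ndufc1, Ndufs4 and Ndufs7), which is 17.9%, against 3.19% of all promoters. The response element of estrogen-related receptors, TNAAGGTCA, was in 1 member (Ndufb4), which is 2.56%, against 1.43%. The GABP motif CCGGAAGT was in 1 member (Ndufs3), which is 2.56%, against 4.31%. A match is a run of letters in this window and was not tested as a binding site.

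Most complex I genes read lower in MKO than in FLOX muscle on both diets, and none passed the test as higher. On CR, 35 of 43 fell at an adjusted p under 0.05 (limma, Benjamini-Hochberg over 14847 genes), where 9.05% of all genes fell and 8.23% rose. On the control diet, 39 of 43 fell, where 10.2% of all genes fell and 9.06% rose. The falls were modest, with a median log2 change of -0.24 on CR and -0.22 on the control diet, or 1.18-fold and 1.17-fold lower. Over all genes tested the median was -0.016 on each diet. In bulk muscle, fewer cells of a type and less RNA per cell cannot be told apart. The p-values measure the spread between these mice.

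The groups did not overlap for many of these genes. Every MKO mouse was below every FLOX mouse for 29 of 43 members on CR, where this held for 4.54% of all genes. It held for 29 of 43 on the control diet as well, against 3.81% of all genes. Both counts were made up of 24 subunits, 4 assembly factors and Ndufa4. The log2 changes on the 2 diets, which share no mouse, correlated across the 43 genes at a Pearson r of 0.88 and a Spearman rho of 0.78, as a description. The 35 genes called on CR were all called on the control diet. Of the other 8, Ndufa7, Ndufaf2, Ndufaf8 and Ndufa4l2 were called on the control diet and not on CR. That difference between diets did not pass the interaction test for any of them, as given below.

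**Figure D1:**
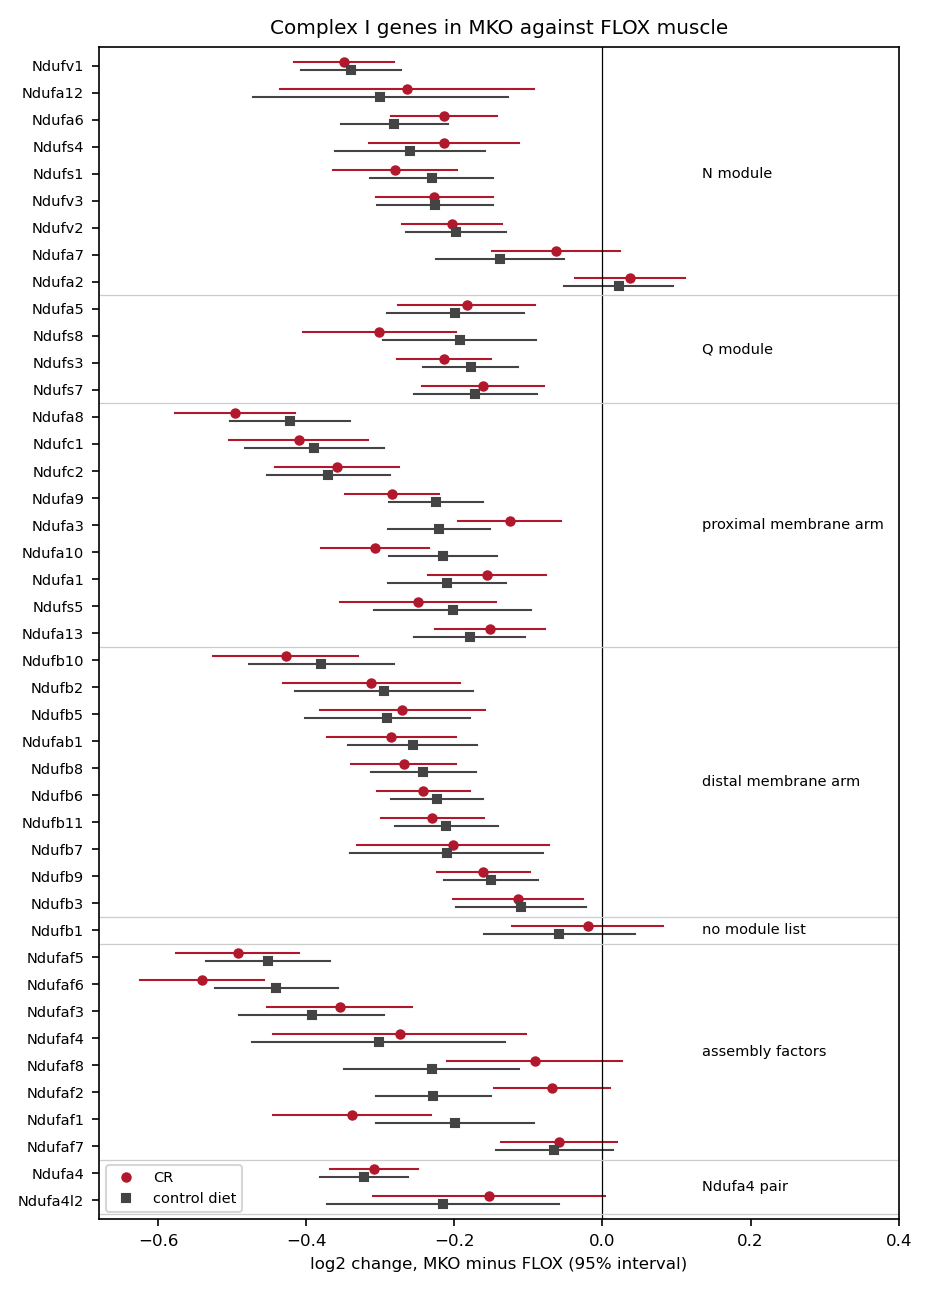
Log2 change, MKO minus FLOX, of the 43 tested genes with 95% intervals from limma's fit, on CR (red circles) and on the control diet (grey squares), grouped by the part of complex I. All points but those of Ndufa2 lie left of 0, and the changes reach -0.54 for Ndufaf6 on CR.

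By role, all 6 core subunits tested fell on both diets. Their median log2 change was -0.25 on CR and -0.20 on the control diet. Ndufv1, which binds NADH and the flavin at the tip of the N module, had the largest fall among them. On CR it read 6985 to 7905 (median 7462) in MKO muscle, against 9074 to 9819 (median 9559.5) in FLOX muscle. Ndufv1 read 7143 to 7878 (median 7444) in MKO muscle, against 9263 to 9817 (median 9419.7) in FLOX muscle on the control diet. The genotypes did not overlap on either diet. The log2 change was -0.35 ± 0.033 (adjusted p = 1.33e-08) on CR and -0.34 ± 0.033 (adjusted p = 3.53e-08) on the control diet. The other core subunits were Ndufv2 and Ndufs1, iron-sulfur proteins of the N module, and Ndufs3, Ndufs7 and Ndufs8 of the Q module. Their changes on the control diet ran from -0.23 for Ndufs1 to -0.17 for Ndufs7. Ndufs6 and Ndufa11 were not analysed here.

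In the N module, 7 of 9 genes fell on CR and 8 of 9 on the control diet. Ndufa2 did not pass on either diet. It read 6728 to 7551 (median 7182) in MKO muscle, against 6513 to 7514 (median 6955) in FLOX muscle on CR, and the groups overlapped. Its 95% interval for the log2 change was -0.037 to 0.11 on CR and -0.052 to 0.096 on the control diet, so a fall as large as that of Ndufv1 lay outside it. Ndufa7 had a log2 change of -0.063 ± 0.042 (adjusted p = 0.342) on CR and -0.14 ± 0.042 (adjusted p = 0.0205) on the control diet. The control-diet call of Ndufa7 was lost on leaving out any of 4 mice (mice 3 and 4 of MKO, mice 2 and 4 of FLOX on that diet), with an adjusted p of up to 0.0718. Ndufa12, another N module subunit, lost its CR call through the tested probe set without CR MKO mouse 4 or CR FLOX mouse 1 (up to 0.0822). With all mice, 3 of its 3 passing probe sets were called lower on CR. In the Q module, 4 of 4 genes fell on each diet, with medians of -0.20 on CR and -0.19 on the control diet.

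The proximal part of the membrane arm, which joins the matrix arm to the membrane, had 9 tested genes. All 9 fell on both diets, with median log2 changes of -0.28 on CR and -0.22 on the control diet. Ndufa8, an accessory subunit on the intermembrane space side with twin cysteine motifs, read 6015 to 6578 (median 6393) in MKO muscle, against 8438 to 9389 (median 8999.8) in FLOX muscle on CR. Ndufa8 read 5739 to 6640.5 (median 6191) in MKO muscle, against 7792 to 8980.5 (median 8129) in FLOX muscle on the control diet. The lowest FLOX mouse was above the highest MKO mouse on each diet. The log2 change was -0.50 ± 0.039 (adjusted p = 5.81e-10) on CR and -0.42 ± 0.039 (adjusted p = 1.88e-08) on the control diet, or 1.41-fold and 1.34-fold lower.

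Ndufc1 and Ndufc2 are small membrane subunits. Ndufc1 read 5749 to 7028 (median 6375) in MKO muscle, against 8079 to 9147 (median 8344) in FLOX muscle on CR. Ndufc1 read 6228 to 7050.2 (median 6780.4) in MKO muscle, against 7919 to 9277 (median 8793) in FLOX muscle on the control diet. Again no MKO mouse reached the FLOX range. For Ndufc1 the log2 change was -0.41 ± 0.046 (adjusted p = 2.14e-07) on CR and -0.39 ± 0.046 (adjusted p = 8.18e-07) on the control diet. Ndufc2 read 7179 to 7924 (median 7665) in MKO muscle, against 9278 to 10516 (median 9660.2) in FLOX muscle on CR, and 7104 to 8030.5 (median 7651) in MKO muscle, against 9105 to 10694 (median 9657) in FLOX muscle on the control diet. These ranges did not overlap on either diet, and the log2 change of Ndufc2 was -0.36 ± 0.041 (adjusted p = 2.9e-07) on CR and -0.37 ± 0.041 (adjusted p = 3.08e-07) on the control diet.

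In the distal part of the membrane arm, 9 of 10 genes fell on each diet, with medians of -0.26 on CR and -0.23 on the control diet. Ndufb10, a subunit exposed to the intermembrane space, fell most. It read 5411 to 5910.4 (median 5598) in MKO muscle, against 7072 to 8112 (median 7569) in FLOX muscle on CR. Ndufb10 read 4625 to 5854 (median 5458) in MKO muscle, against 6354 to 7751 (median 7092) in FLOX muscle on the control diet. The groups were apart on both diets, and the log2 change was -0.43 ± 0.048 (adjusted p = 2.15e-07) on CR and -0.38 ± 0.048 (adjusted p = 2.19e-06) on the control diet. Through its tested probe set, Ndufb7 lost its CR call without MKO mouse 3 or FLOX mouse 2 or 4 of that diet (adjusted p up to 0.0604). Its control-diet call was lost without MKO mouse 4 or FLOX mouse 6 (up to 0.0603). With all mice, 2 of its 2 probe sets were called lower on each diet. Ndufb3 did not pass, at -0.11 ± 0.043 (adjusted p = 0.0673) on CR and -0.11 ± 0.043 (adjusted p = 0.0721) on the control diet. Ndufb1, an accessory subunit in no module list here, was dim and did not pass, at -0.02 ± 0.05 (adjusted p = 0.83) and -0.058 ± 0.05 (adjusted p = 0.455) on the same diets.

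Several probe sets passed the filter for 21 members, and 0 probe sets were called higher in MKO muscle on either diet. Control-diet calls disagreed between probe sets of 4 genes. Of the 5 probe sets of Ndufab1, the mitochondrial acyl carrier protein, 2 were called lower, and their log2 changes ran from -0.33 to 0.025. For Ndufs8 5 of 6 were called lower, for Ndufa7 4 of 5 and for Ndufa3 2 of 3. CR calls disagreed for these 4 genes and for Ndufaf8. On CR a second Ndufaf8 probe set was called lower, at -0.15 (adjusted p = 0.032 over all probe sets), while the tested one was not. Of the 5 Ndufa7 probe sets 1 was called lower on CR, at -0.19 (adjusted p = 0.00408 over all probe sets). For Ndufab1 3 of 5 were called lower on CR, for Ndufs8 5 of 6 and for Ndufa3 2 of 3. The tested probe set of Ndufab1 carries a suffix for probes that may bind more than 1 transcript, and its control-diet call was lost when other probe sets were preferred. Such a probe set was also tested for Ndufa2, Ndufa3, Ndufa12, Ndufa13, Ndufaf7 and Ndufc2.

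**Figure D2:**
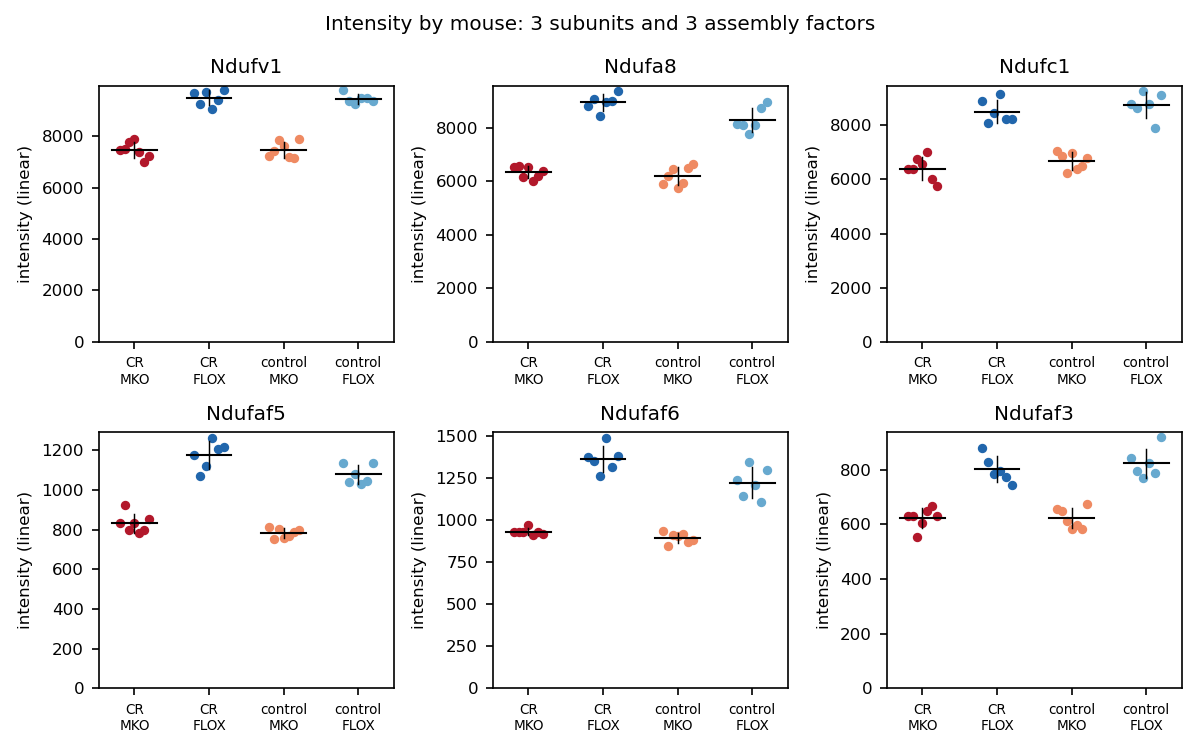
Linear intensity in every mouse (points) with the group mean and SD (lines) for 3 subunits and 3 assembly factors, in CR MKO, CR FLOX, control-diet MKO and control-diet FLOX muscle. For all 6 genes every MKO mouse lies below every FLOX mouse of the same diet.

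The largest fall of all members was that of an assembly factor on each diet, Ndufaf6 on CR and Ndufaf5 on the control diet. On CR the subunit Ndufa8 came next. Of the 8 assembly factors, 5 fell on CR and 7 on the control diet. Their median log2 change was -0.31 on CR, ranging from -0.54 to -0.059, beside -0.23 for the 33 subunits. Their control-diet median was -0.27, ranging from -0.45 to -0.065, beside -0.22 for subunits, which ranged from -0.42 to 0.022. The ranges of the 2 classes overlapped on both diets, and the difference between classes was not tested.

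Ndufaf5, an enzyme that hydroxylates an arginine of NDUFS7 in human cells, read 782 to 926 (median 834) in MKO muscle, against 1071 to 1265 (median 1194) in FLOX muscle on CR. Ndufaf5 read 755 to 814 (median 791) in MKO muscle, against 1032 to 1137 (median 1063) in FLOX muscle on the control diet. MKO and FLOX mice were apart on both diets. The log2 change was -0.49 ± 0.041 (adjusted p = 1.24e-09) on CR and -0.45 ± 0.041 (adjusted p = 9.67e-09) on the control diet. Ndufaf8, which in human cells binds and stabilises NDUFAF5, had smaller log2 changes, a difference that was not tested. It read 1287 to 1673 (median 1507) in MKO muscle, against 1459.9 to 1694 (median 1594) in FLOX muscle on CR, and 1299.8 to 1574 (median 1374) in MKO muscle, against 1527 to 1816 (median 1659) in FLOX muscle on the control diet. The groups overlapped on both diets, and its log2 change was -0.091 ± 0.058 (adjusted p = 0.307) on CR and -0.23 ± 0.058 (adjusted p = 0.00531) on the control diet.

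Ndufaf6, needed at an early step of assembly in human cells, had the largest fall on CR. It read 914 to 972 (median 928) in MKO muscle, against 1262 to 1488 (median 1363) in FLOX muscle on CR. Ndufaf6 read 849 to 933 (median 904) in MKO muscle, against 1107 to 1344 (median 1224) in FLOX muscle on the control diet. No mouse of the 2 genotypes overlapped on either diet. The log2 change of Ndufaf6 was -0.54 ± 0.04 (adjusted p = 1.92e-10) on CR and -0.44 ± 0.04 (adjusted p = 1.39e-08) on the control diet.

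Ndufaf3 and Ndufaf4 work together on the Q module in human cells. Ndufaf3 read 553 to 667 (median 631) in MKO muscle, against 746 to 880.2 (median 789) in FLOX muscle on CR. Ndufaf3 read 584 to 675 (median 613) in MKO muscle, against 769 to 918 (median 809.6) in FLOX muscle on the control diet. The genotypes were apart on both diets, with log2 changes of -0.35 ± 0.048 (adjusted p = 4.04e-06) on CR and -0.39 ± 0.048 (adjusted p = 1.36e-06) on the control diet. Ndufaf4 read 1225 to 1544 (median 1437) in MKO muscle, against 1303 to 2072 (median 1743) in FLOX muscle on CR. Ndufaf4 read 929 to 1327 (median 1081) in MKO muscle, against 1260.3 to 1393 (median 1374) in FLOX muscle on the control diet. Here the ranges overlapped on both diets, and the log2 change was -0.27 ± 0.083 (adjusted p = 0.0221) on CR and -0.30 ± 0.083 (adjusted p = 0.0107) on the control diet. The CR call of Ndufaf4 through this probe set was lost on leaving out FLOX mouse 1 or FLOX mouse 6 of that diet, with an adjusted p of up to 0.0716. With all mice, a second Ndufaf4 probe set was called lower on CR, at -0.36 (adjusted p = 7.87e-06 over all probe sets).

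Ndufaf1, a member of the assembly complex that builds the membrane arm, read 1252 to 1399.6 (median 1364) in MKO muscle, against 1499 to 1911 (median 1674) in FLOX muscle on CR, with no overlap. Ndufaf1 read 1185 to 1389 (median 1290.2) in MKO muscle, against 1345 to 1615 (median 1488) in FLOX muscle on the control diet, with overlap. For Ndufaf1 the log2 change was -0.34 ± 0.052 (adjusted p = 2.78e-05) on CR and -0.20 ± 0.052 (adjusted p = 0.00707) on the control diet. Ndufaf2, a relative of the subunit Ndufa12 that is bound to a late intermediate in human cells, read 788 to 879 (median 839) in MKO muscle, against 838 to 942 (median 881) in FLOX muscle on CR, with overlap. Ndufaf2 read 760.2 to 883 (median 826) in MKO muscle, against 918 to 1012 (median 969) in FLOX muscle on the control diet, and every MKO mouse was below every FLOX mouse. For Ndufaf2 the log2 change was -0.068 ± 0.038 (adjusted p = 0.241) on CR and -0.23 ± 0.038 (adjusted p = 9.48e-05) on the control diet. Ndufaf7, a mitochondrial arginine methyltransferase, did not pass on either diet, at -0.059 ± 0.038 (adjusted p = 0.322) on CR and -0.065 ± 0.038 (adjusted p = 0.251) on the control diet. Its readings were 448 to 486 (median 472) in MKO muscle, against 473 to 510.1 (median 487) in FLOX muscle on CR, and 415 to 490.0 (median 447) in MKO muscle, against 423 to 501 (median 470.0) in FLOX muscle on the control diet, and they overlapped.

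Ndufa4 fell on both diets, as most complex I genes did. It read 9055 to 9846 (median 9636) in MKO muscle, against 11729 to 12038 (median 11744) in FLOX muscle on CR. Ndufa4 read 9088 to 10143 (median 9673) in MKO muscle, against 11778 to 12421 (median 12063) in FLOX muscle on the control diet. The genotypes did not overlap, and the log2 change was -0.31 ± 0.029 (adjusted p = 1.23e-08) on CR and -0.32 ± 0.029 (adjusted p = 9.67e-09) on the control diet. Ndufa4l2, a relative of Ndufa4 known as a gene induced by hypoxia, was dim. It read 356 to 459 (median 435) in MKO muscle, against 411 to 525 (median 468) in FLOX muscle on CR, and 326 to 479 (median 451) in MKO muscle, against 461 to 567 (median 499) in FLOX muscle on the control diet, with overlap on both. For Ndufa4l2 the log2 change was -0.15 ± 0.076 (adjusted p = 0.182) on CR and -0.22 ± 0.076 (adjusted p = 0.0479) on the control diet. The control-diet call was lost on leaving out any of 14 mice (on CR, MKO mice 4 to 7 and FLOX mice 1 and 3, and on the control diet MKO mice 3, 4 and 6 and FLOX mice 1, 2, 4, 5 and 6), with an adjusted p of up to 0.127.

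**Figure D3:**
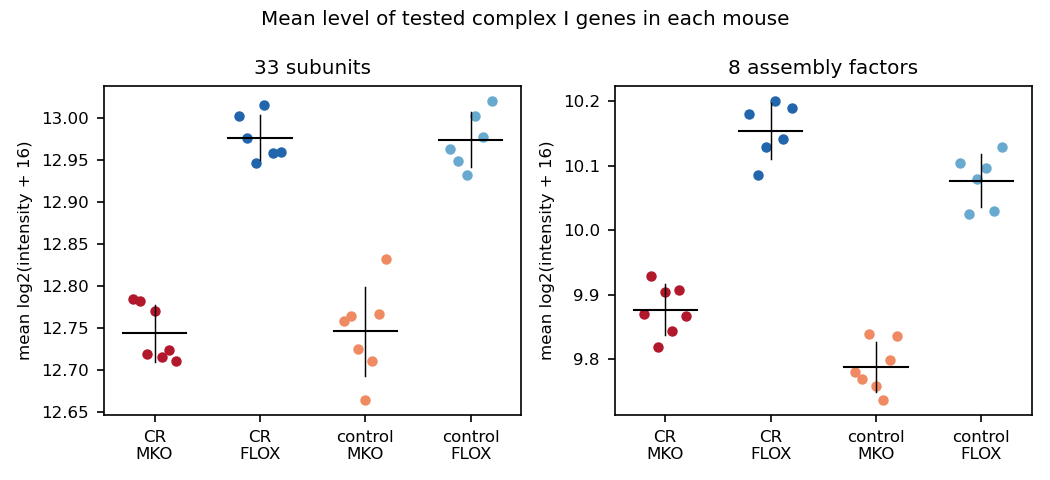
Mean log2(intensity + 16) of the 33 tested subunits (left) and of the 8 assembly factors (right) in each mouse, with group mean and SD, in CR MKO, CR FLOX, control-diet MKO and control-diet FLOX muscle. On each diet all MKO mice lie below all FLOX mice in both panels.

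Averaged over the 33 subunits, the log2 level of a mouse was 12.71 to 12.78 in CR MKO muscle, against 12.95 to 13.02 in CR FLOX muscle. On the control diet it was 12.66 to 12.83 in MKO muscle, against 12.93 to 13.02 in FLOX muscle. The FLOX ranges on the 2 diets nearly coincided. For the 8 assembly factors the mean was 9.82 to 9.93 in CR MKO muscle, against 10.09 to 10.20 in CR FLOX muscle. On the control diet it was 9.74 to 9.84 in MKO muscle, against 10.02 to 10.13 in FLOX muscle. For each class and diet the genotypes were apart.

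The rest of the respiratory chain gives the setting for these values. In control-diet muscle, 4 of 4 tested genes of complex II fell, 9 of 9 of complex III, 12 of 15 of complex IV and 17 of 18 of complex V, and 0 rose. Cox7a1, the muscle form of a complex IV subunit, read 5564 to 6837 (median 5840.4) in MKO muscle, against 9663 to 10203 (median 9927) in FLOX muscle on that diet, and the groups were apart. For Cox7a1 the log2 change there was -0.72 ± 0.045 (adjusted p = 1.74e-11). Median log2 changes were -0.30, -0.26, -0.22 and -0.20 for complexes II, III, IV and V, beside -0.22 for complex I subunits. The member of smallest p was Sdhb in complex II, at -0.32 ± 0.041 (adjusted p = 3.68e-06). It was Uqcrq in complex III, at -0.38 ± 0.044 (adjusted p = 7.86e-07), and Atp5g1 in complex V, at -0.56 ± 0.041 (adjusted p = 2.2e-10).

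Only 1 of the 7 mitochondrially encoded complex I genes, ND5, had a tested probe set. It read 21495 to 24451 (median 23291) in MKO muscle, against 22944 to 24513 (median 23795) in FLOX muscle on CR, and the groups overlapped. ND5 read 21862 to 24270.2 (median 23212) in MKO muscle, against 24449.6 to 25106 (median 24851) in FLOX muscle on the control diet, without overlap. For ND5 the log2 change was -0.029 ± 0.031 (adjusted p = 0.574) on CR and -0.094 ± 0.031 (adjusted p = 0.0289) on the control diet. Among 10 further assembly factors without the Ndufaf name, 4 fell on CR and 3 on the control diet, and 0 rose. Ecsit, a partner of Ndufaf1, had the smallest p there, at -0.22 ± 0.04 (adjusted p = 0.000267) on CR and -0.18 ± 0.04 (adjusted p = 0.00184) on the control diet.

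Regulators of mitochondrial genes were called both ways. Of 11 listed, 2 rose and 1 fell on CR, where 8.23% of all genes rose and 9.05% fell. With 11 genes, the CR counts lie near those shares. On the control diet 4 rose and 2 fell, where 9.06% of all genes rose and 10.2% fell. Those that rose on the control diet were Ppargc1a, its relative Ppargc1b, the estrogen-related receptor gene Esrrg and Yy1, and those that fell were Esrra and Esrrb. Ppargc1a is the targeted gene, and its probe sets do not check the deletion, as given above. Ppargc1a and Yy1 were also called higher on CR, and Esrra lower. Esrra, the estrogen-related receptor through which PGC-1a is known to act on mitochondrial genes, fell, with log2 changes of -0.48 ± 0.052 (adjusted p = 1.11e-07) on CR and -0.53 ± 0.052 (adjusted p = 3.53e-08) on the control diet. Yy1, a zinc finger transcription factor, read 1231 to 1688 (median 1396) in MKO muscle, against 1068 to 1273 (median 1158) in FLOX muscle on CR, with overlap. Yy1 read 1387 to 1725 (median 1510) in MKO muscle, against 1099 to 1289 (median 1182) in FLOX muscle on the control diet, without overlap. For Yy1 the log2 change was 0.28 ± 0.063 (adjusted p = 0.0018) on CR and 0.35 ± 0.063 (adjusted p = 0.00022) on the control diet. Values of Esrra and Yy1 were picked out after they were seen.

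Markers of slow fibres, summed over 8 genes, moved with the genotype. The sum was 15795 to 33084 in CR MKO muscle, against 8713 to 15720 in CR FLOX muscle, and CR MKO mouse 6 held the highest value. On the control diet it was 12087 to 18249 in MKO muscle, against 5940 to 15298 in FLOX muscle. Of the 8 genes 2 rose in MKO muscle on each diet and 6 did not pass. Over all genes 8.23% rose on CR and 9.06% on the control diet. Among the 8 slow fibre genes the smallest p was that of Myoz2 on CR and of Myl3 on the control diet. These 2 genes averaged 5293 and 5009 in control-diet MKO muscle, where the sum averaged 15926. Myoz2 was also called higher on CR than on the control diet. Its log2 change was 0.65 ± 0.15 (adjusted p = 0.00437) in MKO muscle and 0.64 ± 0.16 (adjusted p = 0.0117) in FLOX muscle. With this sum as a covariate, an alternative added after the data were seen, 30 complex I genes were called lower on CR and 32 on the control diet. Of 6 endothelial markers, 2 were called lower in MKO than in FLOX muscle on CR, where 9.05% of all genes fell. On the control diet 1 was called lower, where 10.2% of all genes fell. Of the 6 endothelial markers 0 were called higher on either diet. Their summed level was 3913 to 4895 in CR MKO muscle, against 4667 to 5012 in CR FLOX muscle, and 4827 to 5979 in control-diet MKO muscle, against 4905 to 5831 in control-diet FLOX muscle. The part of endothelial cells in the result was not tested.

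Calorie restriction changed few complex I genes in either genotype. In MKO muscle 1 of 43 rose and 3 fell, where 6.64% of all genes rose and 8.49% fell. In FLOX muscle 3 rose and 3 fell, where 4.66% of all genes rose and 5.37% fell. With 43 genes, these counts lie near those shares. Ndufaf4 and Ndufa13 were the members called in both genotypes through their tested probe sets. The 33 subunits had a median log2 change of 0.0097 in MKO muscle and 0.0088 in FLOX muscle. Through their tested probe sets 0 of them rose in either genotype, while 3 fell in MKO muscle and 2 in FLOX muscle. Other probe sets of Ndufa7 were called higher, as given below. In MKO muscle another probe set of Ndufb6 was called higher, at 0.18 (adjusted p = 0.0351 over all probe sets). One of Ndufab1 was called lower there, at -0.19 (adjusted p = 0.0354). For the 8 assembly factors the median was 0.062 in MKO muscle, where 1 rose and 0 fell. In FLOX muscle their median was 0.093, where 3 rose and 1 fell. The difference between the 2 classes under CR was not tested. Over the subunits the 95% intervals reached at most from -0.31 to 0.22 in MKO muscle and from -0.30 to 0.22 in FLOX muscle, with Ndufb2 and Ndufb7 at the ends.

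Ndufaf4 was the member that rose most. In MKO muscle it read 1225 to 1544 (median 1437) on CR, against 929 to 1327 (median 1081) on the control diet. In FLOX muscle it read 1303 to 2072 (median 1743) on CR, against 1260.3 to 1393 (median 1374) on the control diet. The diets overlapped in both genotypes, and the log2 change, CR minus control diet, was 0.35 ± 0.08 (adjusted p = 0.00369) in MKO muscle and 0.32 ± 0.086 (adjusted p = 0.018) in FLOX muscle. A second Ndufaf4 probe set was also called higher, at 0.26 in MKO muscle and 0.35 in FLOX muscle. The FLOX call was lost without CR mouse 6, at an adjusted p of 0.0552.

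Ndufa13, a proximal membrane arm subunit also known as GRIM-19, fell in both genotypes. In MKO muscle it read 9158 to 10052 (median 9730.4) on CR, against 9749 to 11369 (median 10517) on the control diet. In FLOX muscle it read 10102 to 11349.5 (median 10689.7) on CR, against 11493 to 12394 (median 11883) on the control diet. The diets overlapped in MKO muscle and were apart in FLOX muscle. The log2 change was -0.13 ± 0.035 (adjusted p = 0.0141) in MKO muscle and -0.15 ± 0.038 (adjusted p = 0.00846) in FLOX muscle, and no single mouse left out ended either call.

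**Figure D4:**
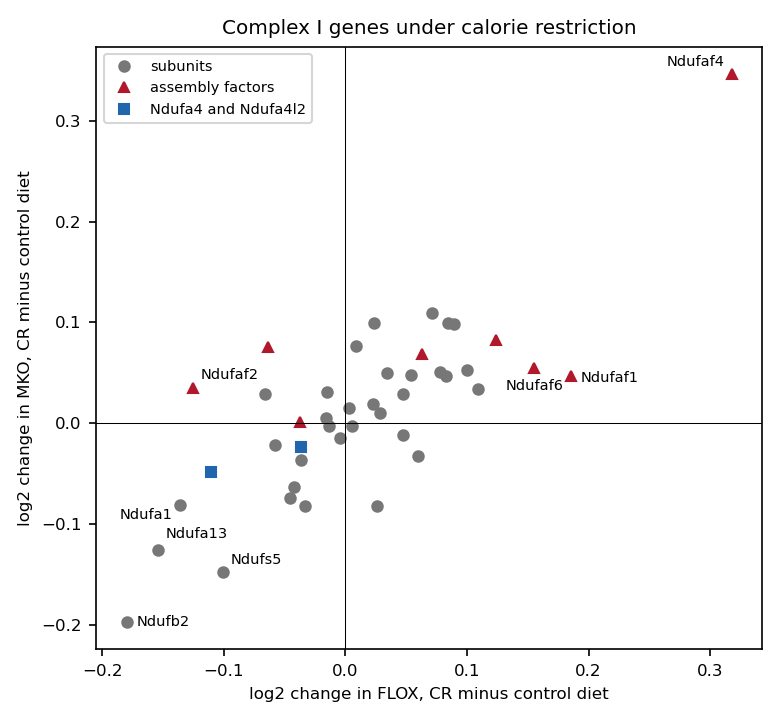
Log2 change, CR minus control diet, of the 43 tested genes in MKO muscle (vertical axis) against that in FLOX muscle (horizontal axis), with subunits, assembly factors and the Ndufa4 pair marked apart. Names mark the genes called in at least 1 genotype, with Ndufaf4 alone in the upper right at 0.35 and 0.32.

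The other genes called in MKO muscle were Ndufb2 and Ndufs5, both lower on CR. Ndufb2, a small subunit of the distal arm, read 3952 to 4746 (median 4243) on CR, against 4204 to 5565 (median 4828) on the control diet, with overlap. For Ndufb2 the log2 change was -0.20 ± 0.056 (adjusted p = 0.0169), beside -0.18 ± 0.06 (adjusted p = 0.0572) in FLOX muscle. Ndufs5, an accessory subunit on the intermembrane space side, read 4417 to 5625 (median 5258) on CR, against 5417 to 5968 (median 5884) on the control diet in MKO muscle, with overlap. For Ndufs5 the log2 change was -0.15 ± 0.05 (adjusted p = 0.043), and the call was lost on leaving out any of 9 mice (CR MKO mice 3 to 7 and control-diet MKO mice 1, 4, 6 and 7), with an adjusted p of up to 0.107. Ndufa7 was not called through its tested probe set, at 0.099 ± 0.04 (adjusted p = 0.101) in MKO muscle, while the other 4 of its 5 probe sets were called higher on CR there. In FLOX muscle the tested probe set was at 0.024 and was not called. The other 4 were at 0.11, 0.14, 0.10 and 0.25 there, with adjusted p of 0.0357, 0.0128, 0.0549 and 0.00147 over all probe sets. With its probe sets averaged, Ndufa7 was called higher in MKO (adjusted p = 0.000499) and FLOX muscle (adjusted p = 0.014).

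In FLOX muscle, the genes called besides Ndufaf4 and Ndufa13 were Ndufaf6 and Ndufaf1, which rose, and Ndufa1 and Ndufaf2, which fell. Ndufaf6 read 1262 to 1488 (median 1363) on CR, against 1107 to 1344 (median 1224) on the control diet, with overlap. For Ndufaf6 the log2 change was 0.16 ± 0.042 (adjusted p = 0.0174) in FLOX muscle and 0.055 ± 0.039 (adjusted p = 0.396) in MKO muscle. Ndufaf1 read 1499 to 1911 (median 1674) on CR, against 1345 to 1615 (median 1488) on the control diet, with overlap, and its log2 change was 0.19 ± 0.054 (adjusted p = 0.0265) in FLOX muscle and 0.047 ± 0.05 (adjusted p = 0.607) in MKO muscle. Ndufa1, a small membrane subunit at the joint of the arms, read 7961 to 8833 (median 8357) on CR, against 8994 to 9394 (median 9174) on the control diet, and the diets were apart. For Ndufa1 the log2 change was -0.14 ± 0.04 (adjusted p = 0.0292) in FLOX muscle and -0.082 ± 0.037 (adjusted p = 0.153) in MKO muscle. Ndufaf2 read 838 to 942 (median 881) on CR, against 918 to 1012 (median 969) on the control diet, with overlap. For Ndufaf2 the log2 change was -0.13 ± 0.039 (adjusted p = 0.0409) in FLOX muscle and 0.035 ± 0.036 (adjusted p = 0.593) in MKO muscle.

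These FLOX calls were close to the threshold. The Ndufaf6 call was lost without control-diet mouse 2 or 5, with an adjusted p of up to 0.0516. Ndufaf1 was lost without CR mouse 4 or 6 or control-diet mouse 5 or 6 (up to 0.0751), and Ndufa1 without CR mouse 2, 5 or 6 or control-diet mouse 4 or 6 (up to 0.074). Ndufaf2 was lost without any of 10 mice, which were all FLOX mice but CR mouse 5 and control-diet mouse 4 (up to 0.102). Without CR FLOX mouse 6 the count of members called in FLOX muscle was 2, and without control-diet FLOX mouse 5 it was 3. With the slow fibre sum as a covariate it was 1, which was Ndufa13. Of 6 fibroblast and tendon markers, 5 were lower on CR in each genotype. Their summed level was 7656 to 12604 in CR MKO muscle, against 14535 to 19783 in control-diet MKO muscle, and 8874 to 12402 in CR FLOX muscle, against 14156 to 21127 in control-diet FLOX muscle. Of 6 endothelial markers, 5 were lower on CR in MKO muscle and 2 in FLOX muscle, with the sums given above. Of 5 tested leukocyte markers, 1 was lower on CR in MKO muscle and 2 in FLOX muscle. Cd74, an antigen presentation gene among them that was picked out after its values were seen, read 246 to 612 (median 311) on CR, against 720.1 to 2007 (median 898) on the control diet in MKO muscle. In FLOX muscle Cd74 read 207 to 545 (median 365) on CR, against 706 to 1455 (median 1078) on the control diet, and the diets were apart in both genotypes. The part of these cell types in the diet changes was not tested.

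**Figure D5:**
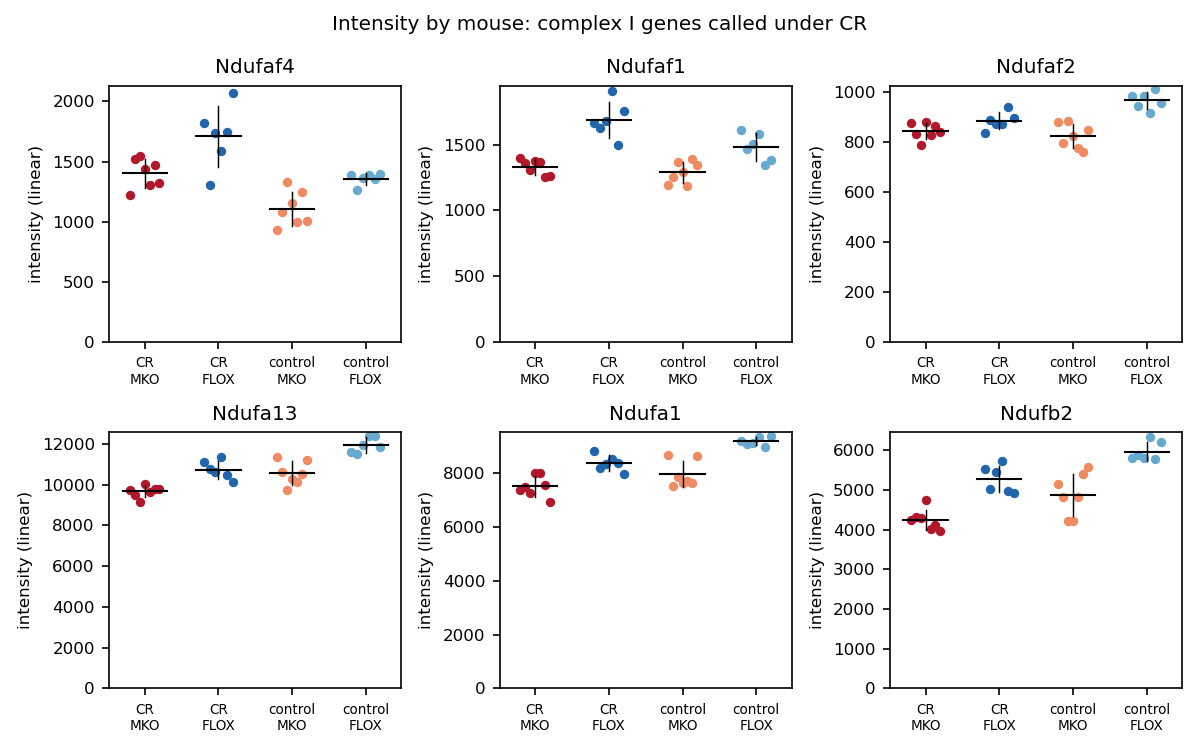
Linear intensity in every mouse (points) with the group mean and SD (lines) for 6 genes called under CR, in CR MKO, CR FLOX, control-diet MKO and control-diet FLOX muscle. Ndufaf4 is higher on CR in both genotypes, and Ndufa13 is lower.

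The difference between the diet effects of the 2 genotypes was tested itself, as the log2 change with CR in MKO muscle minus the one in FLOX muscle. No complex I gene passed in limma's fit, with 0 of 43 called, where 0% of all genes rose and 0% fell. At an unadjusted p under 0.05 there was 1 member and 720 of 14847 genes. The member was Ndufaf2, whose difference of log2 changes was 0.16 ± 0.054 (adjusted p = 0.999). The next was Ndufa3, at 0.095 ± 0.048 (adjusted p = 0.999). Ndufa3, a proximal membrane arm subunit, read 11721 to 13018 (median 12114) in MKO muscle, against 13145 to 13617 (median 13350.3) in FLOX muscle on CR. Ndufa3 read 11332 to 13177 (median 11849) in MKO muscle, against 13697 to 14529 (median 13927) in FLOX muscle on the control diet, and the genotypes were apart on both diets. For Ndufa3 the log2 change, MKO minus FLOX, was -0.13 ± 0.034 (adjusted p = 0.00941) on CR and -0.22 ± 0.034 (adjusted p = 3.26e-05) on the control diet. Over the 33 subunits the 95% intervals of the interaction reached at most from -0.25 to 0.28.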

How the data were processed

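Total RNA from TA/EDL muscle of 26 mice was measured on 1-colour Affymetrix arrays, and per the labels' protocols Trizol and column clean-up gave the RNA that was labelled as biotinylated cRNA. The deposited table gives 1 intensity per probe set and array on a linear scale, as processed by the authors. Details of background correction, probe summary and array scaling are not given in the sources used here. Of 45101 probe sets, 64 were controls, 34945 named 1 gene in the platform annotation, 932 named several and 9160 none, and 34741 symbols were updated through gene identifiers.

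From the intensities log2(intensity + 16) was computed, and every log2 change is on that scale, which understates changes of dim genes. Probe sets with a mean under the 30th percentile of all probe sets (log2 7.47) were left out, and the probe set of highest mean stood for its gene, which left 14847 genes. Limma 3.58.1 in R 4.3.3 fitted 1 mean per group over all arrays. P-values were adjusted over all genes by the Benjamini-Hochberg method, and calls were made at 0.05. The SE given after ± and the 95% intervals come from that fit. The script was tested on simulated data.

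Members, lists and tests were chosen with earlier results of these data known. Values are given for the 8 largest falls in MKO muscle on the control diet, for up to 4 called genes of smallest p in each direction elsewhere, for all Ndufaf genes, for Ndufa4 and Ndufa4l2, and for the gene of smallest p in each other complex. The 2 genes of smallest p stand for the interaction. Numbers in the array titles are not stated to pair the mice, so the main fit used no pairing. Deviations from group means correlated at a median of 0.083 over the 37 pairs of arrays with the same number. Of these pairs, 16 were over 0.1. For pairs of arrays with other numbers in different groups the median was -0.012. Whether the numbers pair mice was not settled by these values. Alternatives changed the pseudocount, filter, normalization, probe set, variance model, weights, arrays, threshold and mice, and added a block for the number. Scan dates were not used. The number of arrays limits the precision.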

Additional observations from a re-analysis of the deposited data

Results flagged for a closer look

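In 10 of 172 combinations of a tested gene and a group, 1 mouse stood apart from the rest by Dixon's test, which is 5.81% where chance gives about 5%. The intensities were as follows. Ndufa4 in CR FLOX mouse 5 was the highest of its group at 12038, with the next mouse at 11764. Ndufa9 in control-diet MKO mouse 3 was the lowest of its group at 6192, with the next mouse at 6704. Ndufab1 in CR FLOX mouse 3 was the lowest of its group at 8441, with the next mouse at 8737. Ndufaf4 in control-diet FLOX mouse 2 was the lowest of its group at 1260.3, with the next mouse at 1356. Ndufaf6 in CR MKO mouse 4 was the highest of its group at 971.89, with the next mouse at 930.3. Ndufb11 in control-diet MKO mouse 4 was the lowest of its group at 7336, with the next mouse at 8289.9. Ndufb11 in control-diet FLOX mouse 6 was the highest of its group at 9979.8, with the next mouse at 9414. Ndufb8 in CR MKO mouse 1 was the highest of its group at 9508, with the next mouse at 9096. Ndufs5 in CR FLOX mouse 6 was the lowest of its group at 5317, with the next mouse at 6156. Ndufv2 in CR FLOX mouse 4 was the highest of its group at 13635, with the next mouse at 13273. The fall of Ndufa4, Ndufa9, Ndufab1, Ndufaf6, Ndufb8, Ndufb11, Ndufs5 and Ndufv2 in MKO muscle was called on both diets whichever single mouse was left out. Ndufaf4 lost its CR call without CR FLOX mouse 1 or 6, as given above.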

How the results depend on the processing

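The counts of complex I genes lower in MKO muscle moved little. They were 30 to 37 on CR, against 35 as reported, and 32 to 40 on the control diet, against 39, over 17 alternatives each. Leaving out each mouse in turn gave 33 to 36 on CR and 36 to 40 on the control diet, and 0 genes were called higher under any of these. The lowest counts, 30 and 32, came with the slow fibre marker sum as a covariate, chosen after the data were seen. The few diet calls depended more on the settings. For CR in MKO muscle the count was 4 as reported. It was 7 with all probe sets tested singly, 2 with only the arrays of the comparison and 1 at a threshold of 0.01, and 3 to 5 on leaving out each mouse. For CR in FLOX muscle it was 6 as reported. It ran from 1 to 9 over 17 alternatives, and from 2 to 7 on leaving out each mouse. The count was 1 at a threshold of 0.01 and 1 with the slow fibre sum as a covariate. The interaction gave 0 calls under every alternative run. With the title number as a replicate block the counts were 35, 39, 4, 5 and 0 in the order CR genotype, control-diet genotype, MKO diet, FLOX diet and interaction, and 2 of 26 arrays correlated best with their own number. Over single genes and settings, 109 values lost a call, 34 gained one and 8844 kept theirs, and no direction of a call turned. The cause of these changes was not tested, except that a stricter threshold calls fewer genes by construction. What signal over background limits was not measured, since no background values were used here.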
